A study of Maylandia zebra with 2 samples.

Results

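Cluster 3 is a set of 158 nuclei in the epithelium of the oral lamina of the cichlid fish *Maylandia zebra*. Its members are the nuclei that the authors kept and gave cluster number 3 in their deposited metadata, 158 of the 1296 kept nuclei (12.2%, 10.5–14.1) and of the 808 kept nuclei they named Epithelial. The working name for these nuclei is notch3-rich suprabasal nuclei, with *notch3*, *krt5* and *sox2* as markers. Cluster 3 was set against the Epithelial clusters 0, 1 and 7 (521 nuclei, called the basal clusters here for their integrin genes), against Epithelial cluster 4 (129 nuclei, rich in barrier genes), and against the 488 kept nuclei of the other classes.

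The tissue was the oral lamina beside replacement teeth, taken from the upper jaw and the lower jaw, with 1 library of sorted nuclei per jaw (20668 nuclei collected from the upper and 20181 from the lower). The study, titled for dental cell types shared among vertebrates, used single-nucleus RNA sequencing, in which each RNA molecule counted carries a unique molecular identifier (UMI). The labels give no genotype, treatment or age, and name no strain beyond the species. Both jaws share 1 matrix, whose barcodes end in suffix 1 or 2 with no key to the jaws, so the nuclei form 1 pooled sample without replicates.

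In a stratified epithelium, cells of the basal layer are anchored to the basement membrane by hemidesmosomes, built around the integrin pair of alpha 6 and beta 4. Cells that leave this layer give up that anchorage, are held to each other by desmosomes, and in the outer layers make cornified envelope and tight junction proteins. Notch receptors on one cell bind Jagged or Delta ligands on a neighbour, and in mammalian skin this signal accompanies the step from the basal to the suprabasal layer. These sentences are background from other epithelia and no result of these data.

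The nuclei of cluster 3 were shallow. They held 104481 UMIs in all, with a median of 565 UMIs (367–1792) and 427 genes per nucleus, against medians of 976 UMIs in the basal clusters and 753 in cluster 4. A floor of 3 UMIs equals 28.7 CPM in cluster 3, where CPM is the number of UMIs per 1000000 UMIs of a set, and all intervals given are exact 95% intervals that cover counting error only. By suffix, cluster 3 held 108 of 754 kept nuclei of suffix 1 (14.3%) and 50 of 542 of suffix 2 (9.23%), and within the Epithelial nuclei its share was 23.2% and 14.6%. The suffixes shared 1 barcode sequence, which was not in cluster 3, and the Scrublet doublet caller marked 5 of 1296 nuclei and 0 of cluster 3. At that rate of 0.386%, rare doublets and missed doublets cannot be told apart, and none were removed. Since cluster 3 was defined by the authors from the same counts, the levels below describe it and no test is given.

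Of the 3 markers, *notch3* was highest in cluster 3 and *krt5* and *sox2* were not. *notch3* (ENSMZEG00005018681), a Notch receptor, had 94 UMIs in cluster 3, or 899.7 CPM (727–1101). It was at 310.2 CPM in cluster 0, 109 in cluster 1, 14.1 in cluster 7 and 169 in cluster 4, and at 131 CPM over the non-epithelial nuclei. Cluster 3 thus had the highest level of the 12 clusters, 2.90-fold above cluster 0, the next. A UMI of *notch3* was seen in 61 of 158 nuclei (38.6%), against 8.40% of the non-epithelial nuclei, whose median depth was 819 UMIs. With every nucleus thinned to 350 UMIs, a depth that left no nucleus out, the expected shares were 24.9% in cluster 3, 5.64% in the basal clusters, 4.62% in cluster 4 and 2.96% in non-epithelial nuclei.

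*krt5*, a keratin of the lower epithelial layers, was detected in 152 of the 158 nuclei at 14424 CPM. Its level lay beside that of the basal clusters (15366 CPM, fold 0.939) and 2.18-fold (2.01–2.37) above cluster 4 (6609 CPM). *krt5* UMIs were also found in 79.3% of non-epithelial nuclei at 4182 CPM, so its detection alone does not mark an epithelial nucleus. *sox2*, a transcription factor of progenitor and taste cells, had 26 UMIs at 249 CPM in cluster 3, against 162 in the basal clusters (1.53-fold, 0.960–2.37), 44.0 in cluster 4 and 2646 in the Immature TB nuclei. It was seen in 10.8% of cluster 3 nuclei and 10.9% of basal nuclei (6.23% and 4.11% at 350 UMIs, with 3.96% in non-epithelial nuclei), and its fold against the basal clusters was 0.859 in suffix 1 and 3.20 in suffix 2. All 3 markers were seen together in 11 nuclei and none in 6. The markers were chosen with these levels known, so the high *notch3* is no support for the name, and *krt5* does not separate cluster 3 from the basal clusters. The interval for *sox2* against the basal clusters spans 1.

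**Figure D1:**
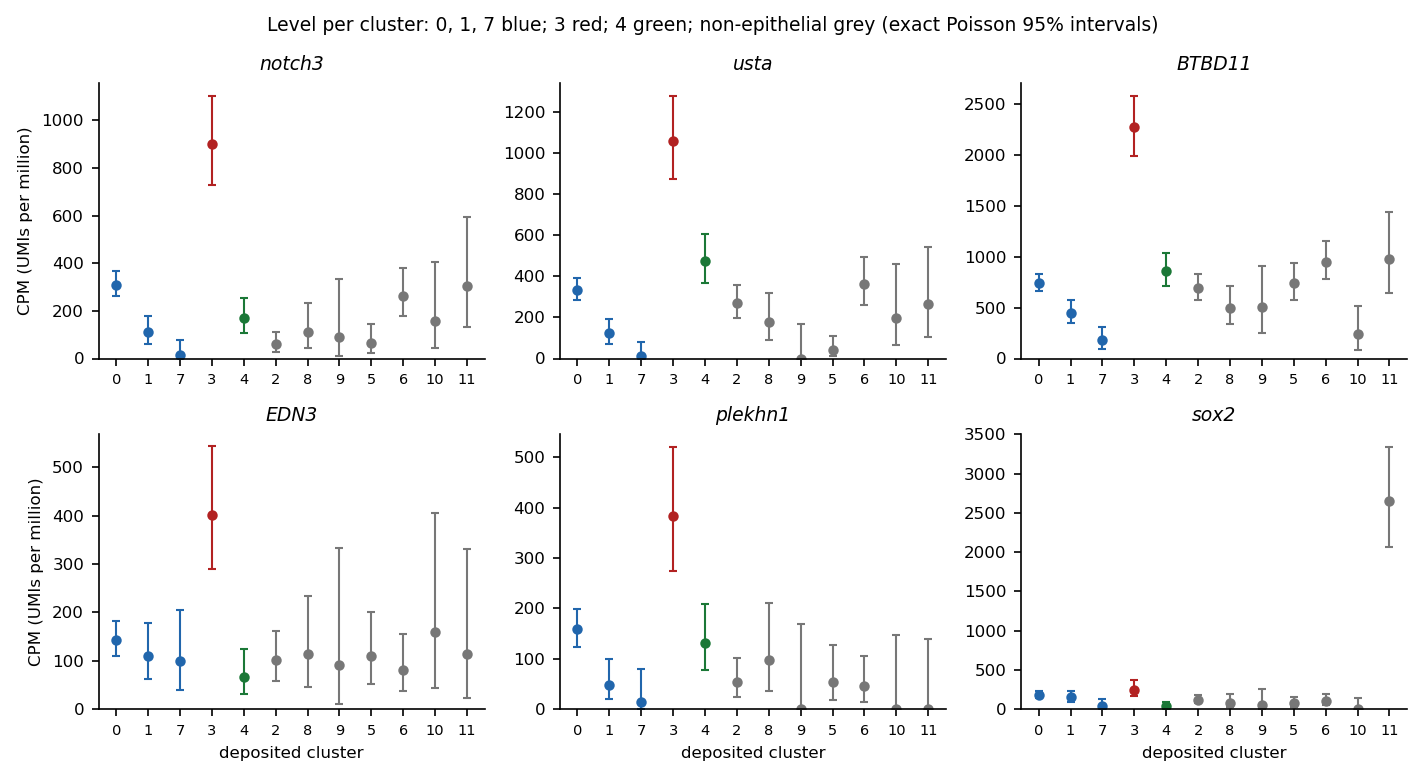
Levels in CPM of 5 genes that were highest in cluster 3 and of sox2, by deposited cluster, with exact Poisson 95% intervals; clusters 0, 1 and 7 are blue, 3 red, 4 green and non-epithelial clusters grey. Cluster 3 stands above all other clusters for notch3, usta, BTBD11, EDN3 and plekhn1, while sox2 peaks in cluster 11, the Immature TB nuclei.

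The 3 Notch receptors with enough counts in cluster 3 were each over 2-fold above the basal clusters in the pooled nuclei, and *notch3* alone was so in both suffixes. *notch1a* stood at 201 CPM against 79.7 in the basal clusters and 36.7 in cluster 4, 2.52-fold (1.45–4.25) above the basal clusters. Its 21 UMIs lay in 9 nuclei, with 8 of them in 1 nucleus, and its share of nuclei was 5.70% against 5.76% in the deeper basal nuclei. *notch2* had 459 CPM against 202 in the basal clusters (2.27-fold, 1.60–3.18), and was level with cluster 4 (447 CPM, 1.03-fold, 0.688–1.52). *notch1b* had 0 UMIs in cluster 3, which allows up to 28.7 CPM. The 3 receptors with enough counts were thus 3 of 3 higher than in the basal clusters, with a median log2 fold of 1.32, where 8.03% of 4991 symbols were higher by 2-fold or more and 18.4% lower by as much, with a median of −0.04. In suffix 1 and suffix 2 the fold against the basal clusters was 8.18 and 1.41 (0.492–3.31) for *notch1a* and 1.63 (0.985–2.61) and 3.55 for *notch2*, so each lost the 2-fold difference in 1 suffix. The choice of *notch3* as a marker counts toward the total of 3.

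The ligands differed from each other. *jag1b*, a Jagged ligand, had 2096 CPM in cluster 3 (1828–2393), the highest of the 12 clusters, against 1593 in the basal clusters (1.32-fold, 1.13–1.52) and 719 in cluster 4 (2.92-fold, 2.29–3.74). *jag2b*, another Jagged ligand, had 115 CPM against 589 in the basal clusters and 841 in cluster 1, and was 5.12-fold lower (fold 0.195, 0.100–0.345) than in the basal clusters. Its level in cluster 4 was 80.7 CPM. Cluster 3 thus held *jag1b* at or above the basal level and *jag2b* near the level of cluster 4.

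Of 4 Notch target features with enough counts, 2 were at least 2-fold above the basal clusters, where 8.03% of all symbols were. *nrarpa*, which codes for a feedback regulator of the pathway, had 182 CPM against 73.8 (2.47-fold, 1.37–4.26) in the basal clusters and 51.3 in cluster 4. *her9*, a Hairy-related repressor, had 144 CPM against 51.6 in the basal clusters (2.78-fold, 1.41–5.22) and 139 in cluster 4. Both rest on under 20 UMIs in cluster 3, and the fold of *her9* was 6.86 in suffix 1 and 1.55 (0.394–4.42) in suffix 2. *bhlhe40*, a helix-loop-helix repressor, had 163 CPM, 0.968-fold (0.545–1.62) of the basal level and 0.376-fold (0.205–0.654) of that in cluster 4. The modifiers and effectors of the pathway showed no such shift: 0 of 18 were 2-fold higher or lower than in the basal clusters, among them *RBPJ*, the DNA-binding partner of Notch, at 239 against 394 CPM (0.607-fold, 0.386–0.917), *maml3*, a coactivator, at 498 against 546 CPM, and *numb*, an inhibitor, at 191 against 98.8 CPM (1.94-fold, 1.11–3.23). *mfng*, a Fringe sugar transferase, had 0 UMIs in cluster 3.

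Requiring 20 UMIs or more in cluster 3 and detection in 15% or more of its nuclei left 548 symbols. Cluster 3 was the highest of the 12 clusters for 134 of them and exceeded the next cluster by 2-fold for 5. These 5 were *notch3*, *usta*, *BTBD11*, *EDN3* and *plekhn1*. The filter used cluster 3 alone, so a symbol can enter by being high there. No like count was made for another cluster, so 134 and 5 have no reference. *usta*, named for a uronyl 2-sulfotransferase that sulfates glycosaminoglycan chains, had 1062 CPM (874–1279) in cluster 3, 255 in the basal clusters and 477 in cluster 4, the next highest. *BTBD11*, a BTB domain protein, had 2278 CPM against 623 and 866. *EDN3*, the signalling peptide endothelin 3, had 402 CPM against 131 and 66.0. *plekhn1*, which codes for a pleckstrin homology domain protein, had 383 CPM against 119 and 132. Cluster 3 exceeded the basal clusters 4.16-fold (3.25–5.31) for *usta*, 3.66-fold (3.11–4.30) for *BTBD11*, 3.06-fold (2.07–4.47) for *EDN3* and 3.20-fold (2.14–4.74) for *plekhn1*. *EDN3* was 4.01-fold above them in suffix 1 and 1.66-fold (0.683–3.53) in suffix 2.

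The highest folds against the basal clusters under the same rule joined these genes to a set that cluster 4 also held. *ST3GAL1* (1 of several features of that name), a sialyltransferase, was 4.89-fold (3.41–6.96) above the basal clusters at 555 CPM, with 712 CPM in cluster 4. *arhgef18a*, an exchange factor for small GTPases, was 4.04-fold (2.53–6.36) higher, and *rbp7a*, a cellular retinol-binding protein, 3.84-fold (2.56–5.70). In cluster 4 *arhgef18a* was near the level of cluster 3, at 352 against 316 CPM, and *rbp7a* was higher still, at 785 against 402. *zbtb7b* (3.66-fold, 2.42–5.46) and *ikzf2* (3.48-fold, 2.15–5.51), zinc finger transcription factors, *slco2b1* (3.56-fold, 2.64–4.76), an organic anion transporter, *pde4d* (3.14-fold, 2.62–3.75), a cyclic AMP phosphodiesterase, *strbp* (3.05-fold, 2.04–4.50), an RNA-binding protein, *tnika* (536 against 178 CPM), a kinase, and *lsp1* (3.03-fold, 2.29–3.99), an actin-binding protein, completed the 15 highest. *zbtb7b* and *strbp* were more than 2-fold higher still in cluster 4, at 844 and 1005 CPM against 383 for each in cluster 3, while *lsp1* was 5.65-fold (3.35–10.0) above cluster 4.

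The integrin genes of hemidesmosomes were low in cluster 3. *itga6b* (ENSMZEG00005002565), the alpha 6 integrin chain of hemidesmosomes, had 584 CPM in cluster 3 against 3573, 4376 and 5376 in clusters 0, 1 and 7, and 572 in cluster 4. It was 6.74-fold lower (fold 0.148, 0.113–0.191) than in the basal clusters and was level with cluster 4 (1.02-fold, 0.718–1.44). *itgb4*, its beta 4 partner, had 325 CPM against 2034 in the basal clusters and 330.1 in cluster 4, and was 6.25-fold lower (fold 0.160, 0.110–0.225) than in the basal clusters. At 350 UMIs per nucleus, the expected share with *itga6b* was 13.8% in cluster 3, 69.7% in the basal clusters and 22.5% in non-epithelial nuclei, so its detection in cluster 3 is not above the background of other classes. The integrin pair therefore sat at the same low level in clusters 3 and 4.

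Several other anchoring genes were low, most not to the same degree, and *pleca*, a plectin, was not low. Its log2 fold against the basal clusters was 0.01 in cluster 3 and 1.20 in cluster 4. *plecb*, another plectin, which links keratin to hemidesmosomes, had 3321 CPM, 2.20-fold lower (fold 0.454, 0.406–0.506) than in the basal clusters and 1.96-fold (1.65–2.33) above cluster 4 (1694 CPM). *col7a1*, the anchoring fibril collagen, had 258 against 915 CPM, and *itga3b*, an integrin chain of basal cells, 412 against 966. *frem2b*, which codes for a basement membrane protein, had 1 UMI in cluster 3 against 214 CPM in the basal clusters. The layer markers *krt15*, a keratin, and *tp63*, the transcription factor of stratified epithelia, had 4221 against 5246 CPM and 679.5 against 1034 CPM, both over 2-fold above cluster 4. The other *tp63* feature had 9 UMIs in cluster 3, at 86.1 CPM against 131 in the basal clusters and 58.7 in cluster 4, and reads of the 2 features may be shared. Over the list, 9 of 14 members were at least 2-fold below the basal clusters and 0 above, with a median log2 fold of −1.19. Among all symbols, 18.4% were lower and 8.03% higher by as much. Against cluster 4, where 14.1% of 2140 symbols were higher in cluster 3 by 2-fold or more and 15.9% lower by as much (median 0.09), 4 of 10 members were higher and 1 lower.

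**Figure D2:**
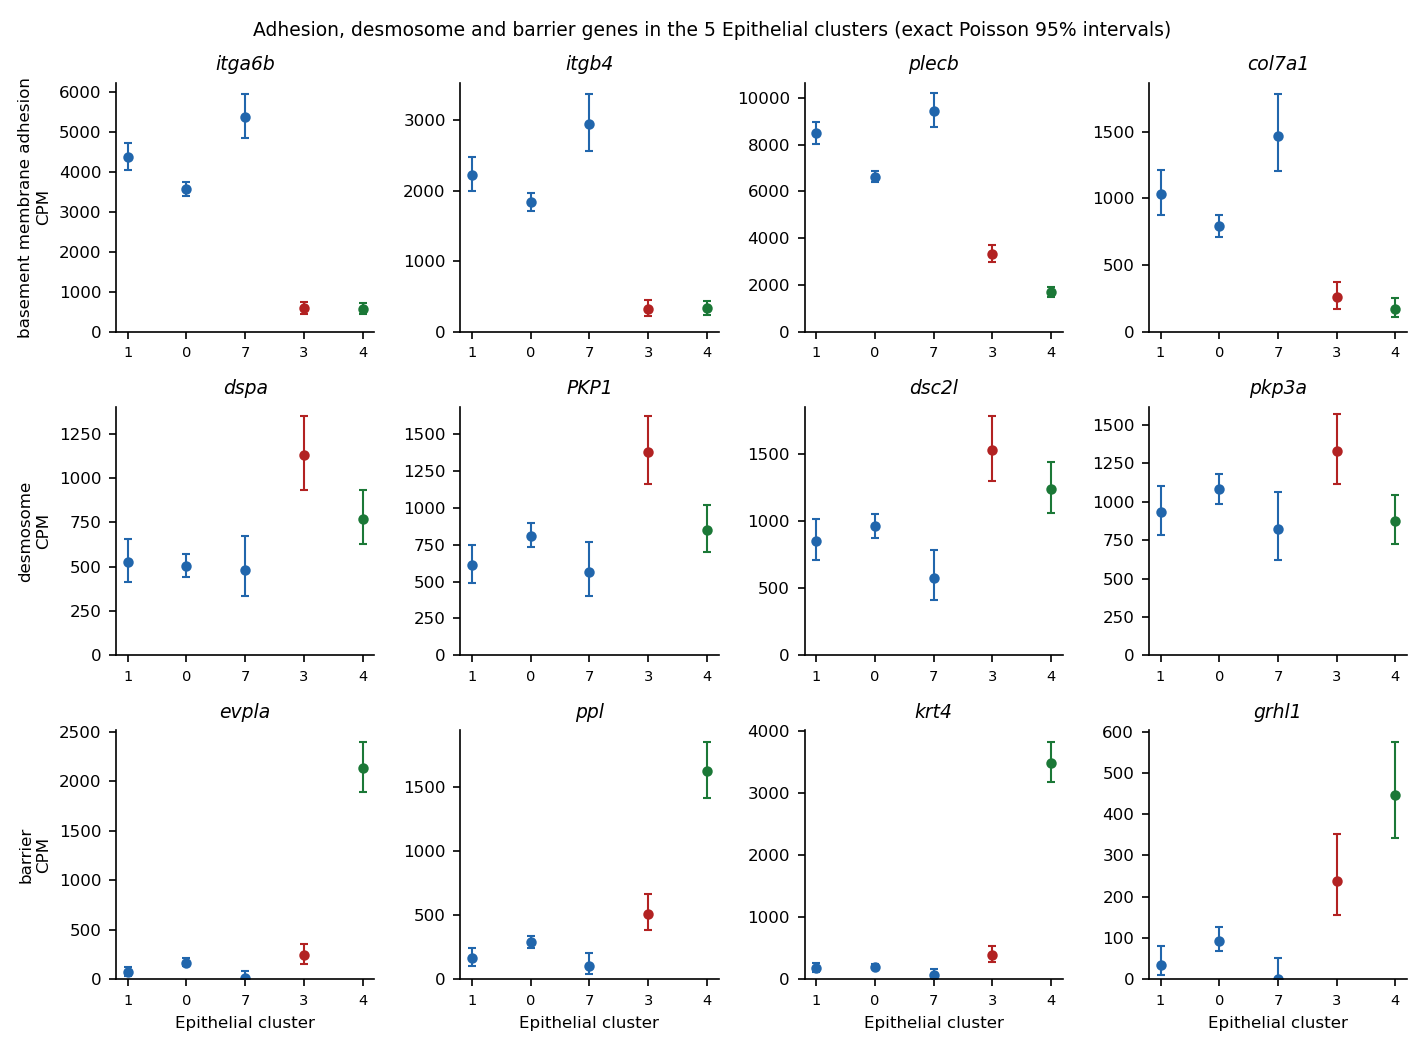
Levels in CPM of 4 basement membrane adhesion genes (top), 4 desmosome genes (middle) and 4 barrier genes (bottom) in the Epithelial clusters 1, 0, 7, 3 and 4, with exact Poisson 95% intervals. Cluster 3 lies with cluster 4 for the integrins, at or above it for the desmosome genes, and between the basal clusters and cluster 4 for the barrier genes.

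Several desmosome genes had their highest level in cluster 3. *dspa*, the desmoplakin that ties keratin to the junction, had 1129 CPM (935–1353) against 506 in the basal clusters (2.23-fold, 1.80–2.76) and 770.2 in cluster 4 (1.47-fold, 1.12–1.93). *PKP1*, a plakophilin with several features of that name, had 1378 CPM against 742 (1.86-fold, 1.53–2.24) and 851. *dsc2l*, a desmocollin cadherin, had 1531 CPM against 899.9 (1.70-fold, 1.42–2.03) and 1239.7. Cluster 3 had the highest level of the 12 clusters for these 3 genes and for *pkp3a* (1330.4 CPM, 1.30-fold, 1.08–1.57 above the basal clusters), *jupa*, the plakoglobin (1292 CPM, 1.46-fold, 1.20–1.77), and *pkp1b* (345 CPM, 1.80-fold, 1.21–2.62). *perp*, a desmosome membrane protein, was higher in cluster 4, at 3272 CPM against 2182 in cluster 3 and 1140.3 in the basal clusters. In the list, 4 of 13 members were at least 2-fold above the basal clusters and 0 below, with a median log2 fold of 0.88. Among all symbols, 8.03% were higher and 18.4% lower by as much. Of those 4 members 3 (*evplb*, *ppl* and *krt4*) are envelope or outer layer genes, and *dspa* is the desmosome core gene among them.

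Genes of the outer layers lay between the basal level and that of cluster 4. *ppl*, periplakin of the cornified envelope, had 507 CPM in cluster 3, 240.5 in the basal clusters (2.11-fold, 1.52–2.89) and 1621 in cluster 4, with a fold against the basal clusters of 3.09 in suffix 1 and 1.40 (0.742–2.46) in suffix 2. *evpla*, an envoplakin, had 239, 129.8 and 2135 CPM in cluster 3, the basal clusters and cluster 4, 1.84-fold (1.13–2.90) above the basal clusters and 8.92-fold lower (fold 0.112, 0.0714–0.169) than in cluster 4. *krt4*, a keratin high in cluster 4 at 3484 CPM, had 392 CPM in cluster 3. In the envelope list 6 of 13 members were at least 2-fold above the basal clusters and 1 below, with a median of 0.88, while 8 of 12 were at least 2-fold below cluster 4 and 0 above, with a median of −1.41. Among all symbols, 8.03% were that much above the basal clusters and 15.9% that much below cluster 4. The exceptions included *tgm1l1*, a transglutaminase, at 144 CPM against 146 in the basal clusters and 29.3 in cluster 4, and *anxa1a*, an annexin, at 1082, 960.4 and 1078 CPM.

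Among transcription factors of the outer layers, *grhl1*, a Grainyhead factor, had 239 CPM against 70.8 (3.38-fold, 2.00–5.59) in the basal clusters and 447 in cluster 4. *elf3*, an epithelial ETS factor, had 229.7 against 76.7 CPM (2.99-fold, 1.77–4.95) and 814 in cluster 4, and *klf4*, a Kruppel-like factor of differentiating epithelium, 297 against 148 CPM (2.01-fold, 1.30–3.04) and 315. These 3 factors were the ones at least 2-fold above the basal clusters among 33 epithelial transcription factors with enough counts, and 4 were at least 2-fold lower (among them *ets1*, *bcl11ab* and an *NFATC1* feature), shares near or below the 8.03% and 18.4% of all symbols. *ets1* had 19.1 CPM from 2 UMIs against 129.8 in the basal clusters. In the junction list, 6 of 20 members were at least 2-fold above the basal clusters and 2 below. *nectin4b*, a cell adhesion molecule, had 211 against 64.9 CPM (3.24-fold, 1.85–5.53), and *oclna*, an occludin of tight junctions, 172 against 51.6 (3.34-fold, 1.78–6.05). The claudins split: *cldn7b* had 95.7 CPM against 42.8 in the basal clusters and 381 in cluster 4, *cldnb* 47.9 against 646 in cluster 4, and *cldn1* 47.9 against 329 in the basal clusters.

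Signalling genes of the basal clusters were low in cluster 3, and several of them were as low or lower in cluster 4. Log2 folds against the basal clusters in cluster 3 and cluster 4 were −2.48 and −2.85 for *wnt3*, −2.09 and −2.21 for *LGR6*, and −1.51 and −2.20 for *lgr4*. Of 30 Wnt pathway members with enough counts, 14 were at least 2-fold below the basal clusters and 0 above, with a median log2 fold of −0.79. Over all symbols, 18.4% were lower and 8.03% higher by as much, and a member can enter through the deeper basal sum alone. Among ligands, *wnt3* had 38.3 CPM against 221, *wnt7ab* 28.7 against 239 and *wnt5a* 47.9 against 174, while *wnt7aa* was near the basal level at 182 against 192 CPM. Of the receptors *LGR6* and *lgr4*, which bind R-spondin, *LGR6* had 47.9 against 209 CPM (0.228-fold, 0.0731–0.546) and *lgr4* 95.7 against 276 (0.347-fold, 0.164–0.652). Here *wnt7ab* was at the floor of 28.7 CPM, and *wnt3*, *wnt5a* and *LGR6* lay little above it, so their folds rest on few UMIs. The nuclear factor *tcf7l2*, with 159 UMIs, and the ligase *RNF43*, with 162, stayed close to the basal clusters at 1.18-fold (0.987–1.39) and 0.844-fold (0.712–0.994). Set against cluster 4, 2 of 14 Wnt members were at least 2-fold higher in cluster 3 and 0 lower, with a median of 0.47. The shares over all symbols in that comparison were 14.1% higher and 15.9% lower.

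Of 10 hedgehog members with enough counts, 7 were at least 2-fold below the basal clusters and 1 above, with a median of −1.61. The shares over all symbols were 18.4% lower and 8.03% higher. *gli1* and *PTCH1*, target genes of the pathway, had 67.0 against 187 CPM and 19.1 against 106 CPM, the coreceptor *boc* 57.4 against 230.1, and the inhibitor *sufu*, the member above the basal level, 144 against 59.0 (2.43-fold, 1.25–4.50). *PTCH1*, *boc* and *gli1* rest on 2, 6 and 7 UMIs in cluster 3. Set against cluster 4, 2 of 3 hedgehog members with enough counts were at least 2-fold higher in cluster 3 and 0 lower. Of 8 epithelial stem cell features, 3 were that much higher than in cluster 4 and 0 lower. Over all symbols 14.1% were higher and 15.9% lower. Of 15 epithelial stem cell features, 0 were at least 2-fold above the basal clusters and 6 below, beside 8.03% and 18.4% of all symbols. These 6 were *itga6b*, *LGR6*, *lgr4*, *gli1* and both *igfbp5a* features. *itga6b* was already counted with the anchoring genes, *LGR6* and *lgr4* with the Wnt members and *gli1* with the hedgehog members, so the lists are not separate results. *lrig1*, *bmi1a* and *yap1* had folds of 0.897, 1.18 and 1.32. The dental factors *pitx1* and *runx2b* were also near the basal level, at 632 against 547 CPM and 211 against 173 CPM, and *edar*, the ectodysplasin receptor, was low at 28.7 against 140.1 CPM.

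Among growth factor genes, those of EGF receptor signalling went both ways. *hbegfa*, a ligand of the EGF receptor, had 258 CPM in cluster 3, the highest of the 12 clusters, against 87.0 in the basal clusters (2.97-fold, 1.81–4.76) and 95.4 in cluster 4 (2.71-fold, 1.35–5.72). The receptor *egfra* had 546 against 356 CPM (1.53-fold, 1.13–2.06). The neuregulins *nrg1* and *nrg2a*, ligands of related receptors, were lower, at 756 against 1659.6 CPM and 459 against 949 CPM, and so was *areg*, another EGF receptor ligand, at 67.0 against 173 CPM. The list of 15 members thus held 2 at least 2-fold higher and 5 lower, where 8.03% and 18.4% of all symbols were. With counts this small, no shift of the list as a whole is read from them. Of 9 FGF members with enough counts, 4 were at least 2-fold below the basal clusters and 0 above. Their median log2 fold was −0.95, and the shares over all symbols were again 18.4% and 8.03%. *fgfr2* stayed at 0.843 of the basal level with 193 UMIs, and the FGF response genes *etv4* and *etv5a* had 2 UMIs each. *fgfrl1a*, an FGF receptor without a kinase domain, had 0 UMIs in cluster 3 and was at least 4.52-fold lower than in the basal clusters, taking 3 UMIs in cluster 3 as the floor.

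The lowest folds against the basal clusters, among symbols that had 50 UMIs or more there and were detected in 25% or more of those nuclei, were those of 10 genes. *abi3bpb*, a matrix protein, had 134 CPM against 1503 and was 11.2-fold lower (fold 0.0891, 0.0486–0.150). *postnb*, the matricellular protein periostin, had 76.6 against 625 CPM, *col1a2*, a fibrillar collagen chain, 57.4 against 428, *pdgfd*, a growth factor, 144 against 1093, and *tln1*, the talin that couples integrins to actin, 28.7 against 271. *homer3b*, *nkd2a*, *igsf9bb*, *srpx* and *kctd17* made up the rest, with folds from 0.0567 to 0.111. Mesenchyme markers moved with this comparison: 8 of 9 with enough counts were 2-fold or more below the basal clusters, and their summed level was 727 CPM in cluster 3, 601.5 to 3919 CPM over the other Epithelial clusters and up to 18368 CPM in cluster 6, the Mesenchymal class. Over all symbols, 18.4% were lower than in the basal clusters by as much. The part of these markers in the result was not tested.

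Against the basal clusters as a whole, 401 symbols were 2-fold or more higher in cluster 3 and 919 were lower by as much. TMM scaling, which moved the median of all symbols by −0.26 on the log2 scale, gave 221 higher and 1148 lower, so the balance of these counts depends on the scaling. All folds above the basal clusters also shrink under it, and their intervals do not cover this shift. Those of *pkp3a*, *jupa* and *jag1b* were modest before it. Folds little above 2-fold, such as those of *notch2*, *dspa*, *ppl* and *klf4*, fall below 2-fold under it. With TMM, fewer members of the Notch receptor, desmosome, envelope and transcription factor lists are therefore at least 2-fold above the basal clusters than the counts given above. A symbol entered with 20 UMIs in the 2 sums together, of which the basal sum is the deeper, so a symbol can pass through the set where it is high alone and then had to differ. Against all other Epithelial clusters together, cluster 3 had 359 of 5547 symbols (6.47%) higher by 2-fold or more and 1053 (19%) lower by 2-fold or more.

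The lowest folds of cluster 3 against cluster 4 were those of *si:ch211-212k18.7* (0.0256), *glulc*, a glutamine synthetase (28.7 against 712 CPM), *SAMD12*, *lpcat4*, *cldnb*, *usp43a*, *abca12*, a lipid transporter of the skin barrier (67.0 against 785 CPM), *npdc1a*, *alas1*, which starts haem synthesis (76.6 against 873 CPM), and *nox1*, an NADPH oxidase (67.0 against 719 CPM). Immune markers moved with this comparison too, at 679.5 CPM in sum in cluster 3 against 3477 CPM in cluster 4, with 3 of 3 countable members at least 2-fold lower, and their part in it was not tested. Over all symbols, 15.9% were lower than in cluster 4 by as much. The highest folds were those of *fhl3a*, a LIM domain protein (641 against 88.0 CPM, 7.29-fold, 3.91–14.8), *EDN3* (6.09-fold, 2.92–14.2), *slc6a11a*, *lsp1*, *epha7*, an ephrin receptor (5.34-fold, 2.72–11.4), *notch3* (5.33-fold, 3.35–8.82), *grb10b*, *gpc1b*, a glypican (2852 against 609 CPM), *rai14* and *ccser2a*. Of these 10, *fhl3a*, *slc6a11a*, *epha7*, *grb10b*, *gpc1b*, *rai14* and *ccser2a* were within 2-fold of the basal clusters. *lsp1*, *EDN3* and *notch3* were higher than in both the basal clusters and cluster 4.

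Cluster 3 lay between the basal clusters and cluster 4 for 60.7% of the symbols that separate the 2 sets, and for 65.4% in suffix 1 alone, 49.7% in suffix 2 alone and 51.8% with the 82 nuclei of its main rebuilt cluster alone. Of 746 symbols at least 2-fold higher in cluster 4 than in the basal clusters, 469 (62.9%) had a cluster 3 level between the 2, and of 1256 symbols at least 2-fold lower, 746 (59.4%). Of those higher in cluster 4, 31.5% lay at or beyond the basal level and 5.63% at or beyond that of cluster 4. Of those lower there, the shares were 21.3% and 19.3%. With 0 as the basal level and 1 as that of cluster 4 on the log2 scale, the median position was 0.28 for genes higher in cluster 4 and 0.38 for genes lower there. Among symbols with at least 100 UMIs the shares were 77.4% of 146 and 65.9% of 414, and the median positions 0.35 and 0.51. Positions differed by gene: *itga6b* was at 0.990, the level of cluster 4, *grhl1* at 0.659, *ppl* at 0.390, *krt4* at 0.266 and *evpla* at 0.217. The 2 comparisons share the basal sums and cluster 4 was used to pick the genes, so these shares are descriptions. A set at the basal level would also fall between the 2 for many symbols by counting error alone. No reference share was computed, so the shares do not by themselves show an intermediate level.

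**Figure D3:**
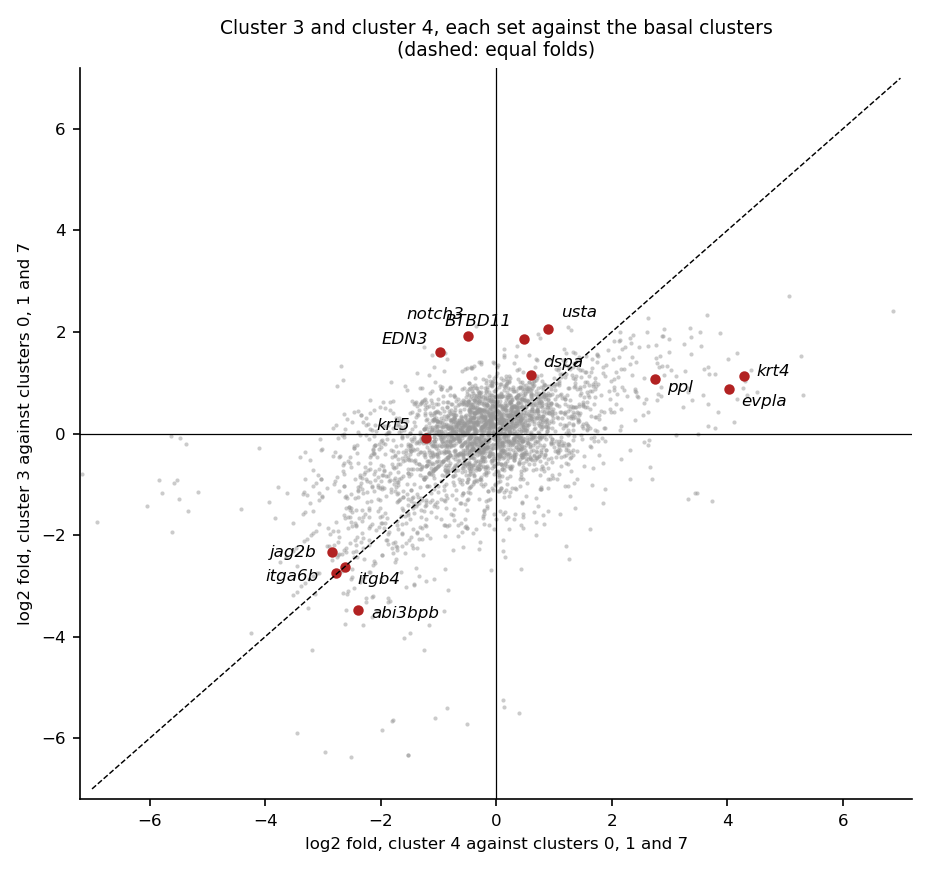
Log2 folds of 3030 symbols with at least 50 UMIs, cluster 4 against the basal clusters on the horizontal axis and cluster 3 against the same basal clusters on the vertical axis, with equal folds dashed. The integrins lie near the dashed line, evpla, ppl and krt4 lie below it at a positive log2 fold, and notch3, EDN3, BTBD11 and usta lie above it; symbols with 0 UMIs in cluster 3 or 4 stand at a value set by the prior count.

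Outside that range were genes whose cluster 3 level lay above or below both the basal clusters and cluster 4. Of 3030 symbols with at least 50 UMIs in the 3 sets, 54 were at least 2-fold above both the basal clusters and cluster 4, and 138 at least 2-fold below both. A further 261 were low against the basal clusters and within 2-fold of cluster 4, 114 high against the basal clusters and within 2-fold of cluster 4, 439 within 2-fold of the basal clusters and above cluster 4, 225 within 2-fold of the basal clusters and below cluster 4, and 1699 within 2-fold of both. Symbols within 2-fold of a set can lie inside that range or outside it. The symbols left over were at least 2-fold from both sets and lay between them. All these counts use folds without regard to their intervals. Among the 54, *slc25a44a*, with 11 UMIs in cluster 3, was 2.04-fold (0.934–4.11) above the basal clusters, an interval that spans 1. Besides *notch3*, *notch1a*, *nrarpa*, *EDN3*, *hbegfa*, *usta*, *BTBD11* and *plekhn1*, the 54 held the ephrin receptors *epha3* (211 CPM against 47.2 and 36.7) and *EPHB1* (287 against 97.4 and 44.0), and *PAK3*, a kinase of the actin skeleton (297 against 75.2 and 125). These were picked after their values were seen, and *epha3* and *EPHB1* had up to 8 UMIs in 1 nucleus. The levels of *epha3* and *EPHB1* in cluster 3 were close to those over the non-epithelial nuclei, at 1.00-fold (0.602–1.60) and 0.837-fold (0.548–1.24).

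Of the 138 below both, 14 had 0 UMIs in cluster 3, and with 3 UMIs taken as the floor 4 of these 14 stay 2-fold below both. Others among the 14 are given here against the basal clusters alone. *serpinh1b*, a chaperone for collagen, was at least 4.62-fold lower than in the basal clusters (133 CPM), *kcnn4*, a potassium channel, at least 4.52-fold lower (129.8 CPM), and *ccn1*, a secreted matrix protein, at least 2.72-fold lower (78.2 CPM), with the floor of 3 UMIs over cluster 3. Their levels in cluster 4 were 22.0, 44.0 and 36.7 CPM, too near the floor of 28.7 CPM for a 2-fold difference from cluster 4 to be shown. Among genes with more counts, *fosl2*, an AP-1 transcription factor, had 172 CPM against 491 in the basal clusters and 425 in cluster 4, and *abl2*, a tyrosine kinase, 201 against 435 and 491. These were likewise picked after their values were seen.

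Set against the 488 non-epithelial nuclei, cluster 3 was high in desmosome genes and in several of the genes named above. *notch3* was 6.88-fold (4.97–9.57) higher, *plekhn1* 7.72-fold (4.57–13.3), *capn9*, a calpain protease, 7.13-fold (3.97–13.0), *rbp7a* 5.63-fold (3.52–9.05), *ST3GAL1* 5.49-fold (3.70–8.16) and *hsd17b12a*, an enzyme of fatty acid elongation, 5.07-fold (3.19–8.08). Of 14 desmosome members 11 were at least 2-fold higher and 1 lower, and of 13 envelope members 11 and 0, where 10.7% of 4732 symbols were at least 2-fold higher and 26.1% lower. The other 4 of the 10 highest folds were features named APK84_gp11, APK84_gp08, APK84_gp07 and APK84_gp04, to which the sources give no role. The 13 features with that prefix took 1.54% of the UMIs of cluster 3, 0.982% in the basal clusters, 1.47% in cluster 4 and 0.327% in non-epithelial nuclei. Ribosomal protein features took 2.27%, 1.73%, 1.40% and 1.60% in the same sets. Cluster 3 had the highest share of the 12 clusters for both groups of features, and what lies behind these shares was not tested.

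Markers of immune, mesenchyme, taste bud, pigment, endothelial, goblet and ionocyte cells summed to less in cluster 3 than in their highest cluster, while the neural and erythroid lists were at or near their highest level. Of 23 immune markers 9 had 0 UMIs there, *csf1ra*, *stab1*, *zap70*, *jak3*, *cd79a*, *blnk*, *ncf4*, *coro1b* and *BCL11B*, and the list summed to 679.5 CPM against 1733 to 10591 CPM over the non-epithelial clusters. Of 23 mesenchyme markers 6 had 0 UMIs, *prrx1b*, *glis1a*, *glis1b*, *fn1b*, *col6a1* and *col6a2*. Of 9 taste bud markers *trpm5* and *avil* had 0 UMIs, and the list summed to 612.6 CPM against up to 8528 CPM. Of 8 endothelial markers 5 had 0 UMIs, of 8 pigment markers 4, of 5 ionocyte markers 2 and of 3 goblet markers 2, with sums of 47.9, 47.9, 95.7 and 9.57 CPM. Neural and glial markers were the list in which cluster 3 was the highest of the 12 clusters, at 536 CPM against 251.6 to 506.4 CPM over the non-epithelial clusters, mostly from *mbpb* with 42 of 56 UMIs. The 3 erythroid markers summed to 143.6 CPM from 15 UMIs in cluster 3, against 56.6 to 124.7 CPM over the other Epithelial clusters and 39.7 to 155.1 CPM over the non-epithelial clusters. The part of other cell types in the results was not tested.

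Single nuclei of cluster 3 carried the same pattern, with a wide spread. The integrin, plectin, laminin and related genes took a median of 0.330% of a nucleus's UMIs (quartiles 0.170 and 0.730), against 1.48%, 1.77% and 2.30% in clusters 0, 1 and 7 and 0.201% in cluster 4. In all, 9 of the 158 nuclei lay above the median of cluster 1, and 26 had no such UMI. The desmosome core genes took a median of 0.808% (quartiles 0.536 and 1.25), against 0.559%, 0.450% and 0.357% in clusters 0, 1 and 7 and 0.698% in cluster 4. The envelope genes took 0.308% (0.173 and 0.540) against 0.229%, 0.163%, 0.131% and 0.797%, and 15 of the 158 nuclei lay above the median of cluster 4.

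**Figure D4:**
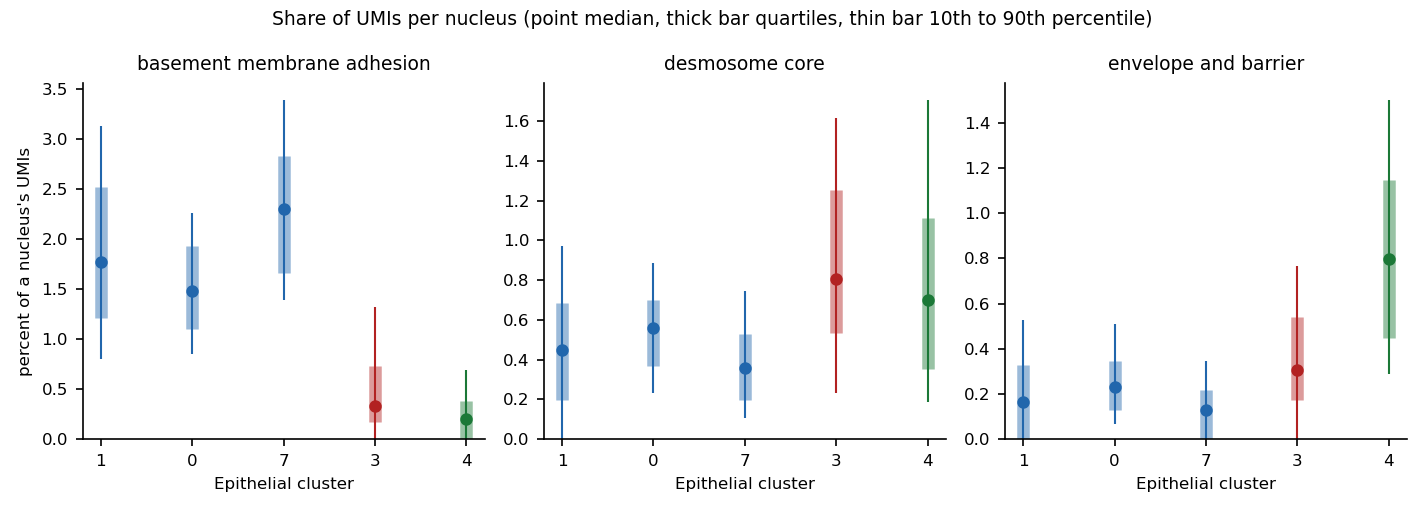
Share of each nucleus's UMIs (percent) in basement membrane adhesion, desmosome core and envelope and barrier genes, for Epithelial clusters 1, 0, 7, 3 and 4; points are medians, thick bars quartiles and thin bars the 10th to 90th percentiles over nuclei. The median of cluster 3 is 0.330% for adhesion, near the 0.201% of cluster 4, 0.808% for the desmosome core, the highest of the 5, and 0.308% for the envelope genes, between the basal clusters and cluster 4.

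A clustering rebuilt from the counts, chosen as a view after the values were known, divided cluster 3. Of its 158 nuclei 82 fell in 1 rebuilt cluster of 143 nuclei, where they were the largest share, 52 fell in another beside nuclei of cluster 1, and 24 elsewhere. The 82 and the 52 both had low *itga6b* (479 and 709.8 CPM) and high *notch3* (869 and 1149 CPM). They differed in *usta*, at 1526 against 507 CPM, in *krt5*, at 13750.2 against 17913 CPM, and in *itgb4*, at 159.7 against 642 CPM. In the 52 nuclei *usta* thus lay near the 477 CPM of cluster 4. The deposited border of cluster 3 is not the one a rebuilt clustering draws, while low *itga6b* and high *notch3* held in both parts of cluster 3. Both parts were picked from the deposited cluster 3, and the nuclei of other clusters beside them were not measured apart. In the space of that clustering 67.2% of the nearest neighbours of a cluster 3 nucleus were of cluster 3, 20.5% of cluster 1, 8.61% of cluster 0 and 1.69% of cluster 4.

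Levels of *notch3*, *dspa* and *itga6b* were alike in shallow and deep nuclei of cluster 3, and those of *krt5* were not. Cut into 3 depth groups of 52 or 53 nuclei, cluster 3 had *notch3* at 848, 879 and 936 CPM from the shallowest to the deepest, *dspa* at 1187, 1107 and 1116 and *itga6b* at 551, 684 and 538, with overlapping intervals. *krt5* was at 12765 (11364–14292), 14166 and 15360.4 CPM (14295–16484), without overlap between the shallowest and the deepest group. *notch1a* was at 42.4, 163 and 299 CPM, from 1, 5 and 15 UMIs. In suffix 1 and suffix 2, *notch3* had 870.5 and 959 CPM in cluster 3 and folds of 6.19 and 3.05 against the basal clusters. The folds were 0.147 and 0.173 for *itga6b*, 2.43 and 2.10 for *dspa*, 3.74 and 4.74 for *usta*, 3.49 and 2.97 for *nrarpa* and 2.41 and 3.09 for *hbegfa*. They were less alike for *notch1a*, *her9*, *EDN3*, *notch2* and *ppl*, as given above.

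**Figure D5:**
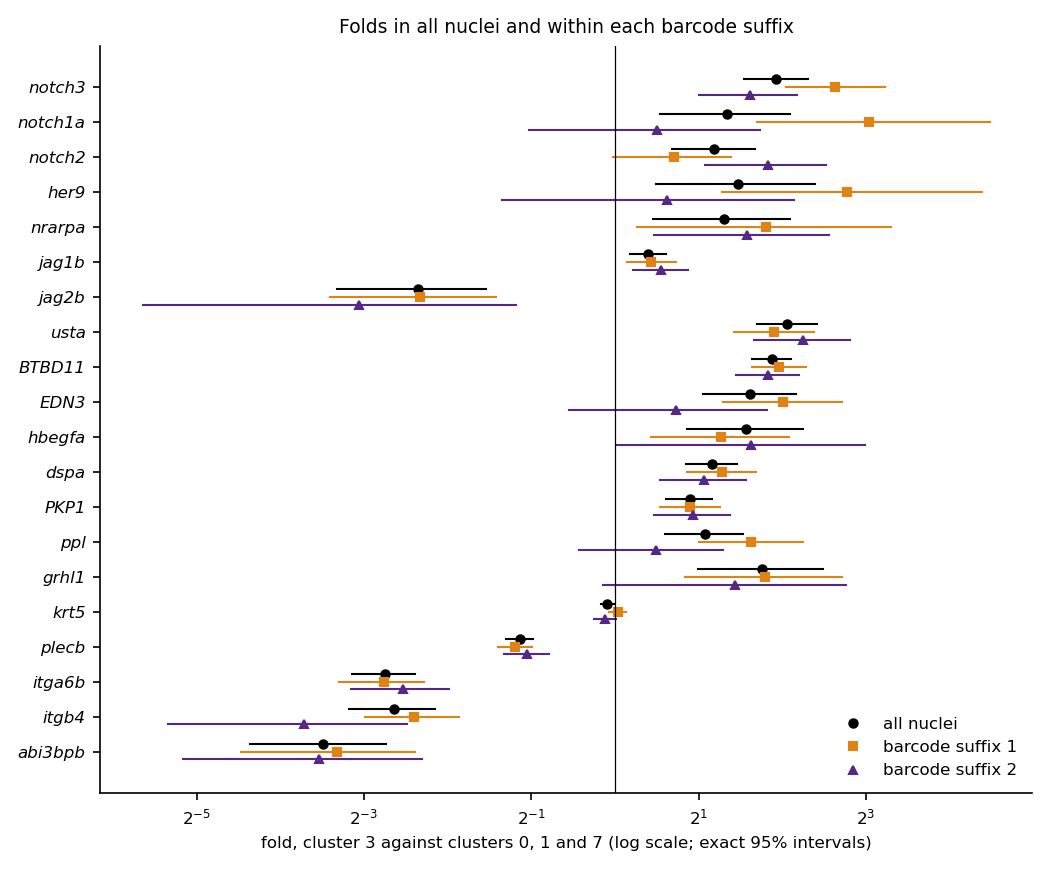
Folds of 20 genes in cluster 3 against the basal clusters (horizontal axis, log scale) in all nuclei and within barcode suffix 1 and suffix 2, with exact 95% intervals. Folds of notch3, usta, BTBD11, dspa, itga6b and itgb4 lie on the same side of 1 in both suffixes. Intervals that reach 1 include those of notch1a, her9, EDN3 and ppl in suffix 2 and of notch2 in suffix 1.

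Within cluster 3, *notch3* and *itga6b* were seldom seen in the same nucleus. *itga6b* was detected in 5 of 61 nuclei with a *notch3* UMI (8.20%) and in 25 of 97 without (25.8%), although the nuclei with *notch3* were the deeper, at a median of 652 against 538 UMIs. *dspa* was detected in 45.9% and 39.2% of the same nuclei, *usta* in 44.3% and 36.1%, and *jag1b* in 65.6% and 57.7%. *sox2* differed in the other direction, at 18.0% of nuclei with *notch3* and 6.19% of those without, from 17 nuclei in all. *evpla* was less frequent with *notch3*, at 9.84% and 14.4%, and *ppl* was alike at 23.0% and 22.7%. The pairs were looked up after the values were seen, with 10 genes set against *notch3*, and counts per nucleus are sparse.

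The deposited metadata also hold a score from 0 to 1 named cyto, for which the sources give no rule. Its median in cluster 3 was 0.475 (quartiles 0.392 and 0.580), below the 0.877, 0.637 and 0.819 of clusters 0, 1 and 7 and above the 0.279 of cluster 4. Among nuclei of 400 to 800 UMIs, the medians were 0.443 in 111 nuclei of cluster 3, 0.610 in 172 of cluster 1 and 0.255 in 66 of cluster 4. Clusters 0 and 7 had only 7 and 8 such nuclei, with medians of 0.594 and 0.686. In that window cluster 3 thus stayed below cluster 1 and above cluster 4, while the order among clusters 0, 1 and 7 changed. Median depths there were 523 UMIs in cluster 3, 587.5 in cluster 1 and 591 in cluster 4, so depth was not fully matched. The part of the remaining depth difference was not tested. Cluster 3 thus lay between the basal clusters and cluster 4 in this score too, which was made by the authors from the same nuclei.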

How the data were processed

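Sorted nuclei of the upper and lower jaw were counted by the authors with Cell Ranger 3.1.0, per the submitters' processing notes and the file headers, into deposited raw UMI counts of 28622 features. The genome build is not given in the sources used here. The authors' metadata name the kept nuclei, clusters and classes. The kept mark equals more than 300 and fewer than 2500 genes, which holds for 1296 of 1381 barcodes. Per the file headers, the authors' cyto value is a fraction from 0 to 1 whose making is not described, and the deposited UMAP coordinates are a score that was not used.

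UMIs were summed per set and scaled to CPM. Ratios carry exact conditional 95% intervals, CPM exact Poisson intervals and shares of nuclei Clopper-Pearson intervals, which cover counting error only. PCR copies are collapsed by the UMIs. Both libraries are 1 pooled sample and the authors' clusters were built from these genes, so no p-value is given. Folds past 2-fold were counted among symbols with 20 UMIs in both sums together, with log2 folds after adding 0.5 UMIs scaled to each total. That scaled form replaced a fixed one after a first look at the results.

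The genes named are symbols with 20 UMIs in cluster 3 that were seen in 15% of its nuclei. Of these, the text takes the 15 highest folds against clusters 0, 1 and 7, the 10 highest against cluster 4 and against non-epithelial nuclei, and those highest of 12 clusters by 2-fold. It adds the 10 lowest against clusters 0, 1 and 7 and against cluster 4 (50 UMIs and 25% of nuclei there), members of 32 gene lists with the most UMIs, and markers, Notch and stem members with 10 UMIs. Cluster 3, its markers and the lists were chosen with earlier results of these data known. Depth groups, co-detection and the genes above or below both the basal clusters and cluster 4 were chosen after the values were seen. Of 17066 features named by symbol, 12893 had their symbol in the RefSeq table, which was used for no value.

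The scripts used Python 3.11.15 with numpy 2.4.6, scipy 1.17.1 and pandas 2.3.3, scanpy 1.11.5 with leidenalg 0.10.2 for a rebuilt clustering (2000 variable genes, 30 components, 15 neighbours, resolution 1), Scrublet at a rate of 0.06, and edgeR 4.0.16 in R 4.3.3 for TMM factors alone. The count code was tested on simulated data. Alternatives covered count minimums, scaling, prior count, equal depth, barcode suffix, doublet calls and rebuilt clusters.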

Additional observations from a re-analysis of the deposited data

Results flagged for a closer look

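Barcodes that the authors did not keep also held *notch3* UMIs, and these barcodes enter no comparison. In the 41 of them with 2500 genes or more, *notch3* had 215 UMIs, or 326.7 CPM (284.5–373.4), above the 4.56 CPM that a floor of 3 UMIs equals there. Over all kept nuclei the level was 241 CPM (216.2–267.9), and in cluster 3 it was 899.7 CPM. *krt5* stood at 13244 CPM and *sox2* at 132.2 CPM in the same 41 barcodes. In the 44 barcodes with 300 genes or fewer, *notch3* had 3 UMIs, at the floor.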

How the results depend on the processing

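No paired analysis was possible because both jaws share 1 matrix with no replicate numbers and no test was run. Of 94 comparison values recomputed, 50 kept close to the reported value and 44 moved. Of 384 shares of nuclei, 285 kept close and 99 moved. No rule for a reversal was set for these values and shares. Against cluster 4 the balance did change sides, from 301 symbols higher and 341 lower as reported. More were higher than lower at a minimum of 50 UMIs, at both thinned depths and in suffix 2 alone. Of 7368 gene folds 7 reversed, and of 925 list medians 3 reversed. Only those of 2-fold or more, and for genes with an interval that excludes 1, could be marked as reversed. Counts of symbols are given as higher and lower by 2-fold against clusters 0, 1 and 7, then cluster 4, then non-epithelial nuclei. The share of genes between the basal clusters and cluster 4 follows, 60.7% as reported. A minimum of 10 UMIs gave 729 and 1538, 559 and 655, 826 and 1985, and 55.8%. A minimum of 50 UMIs gave 142 and 422, 114 and 101, 237 and 554, and 65.4%. Thinning to 350 UMIs gave 194 and 412, 175 and 110, 280 and 554, and 66.4%. Thinning to 500 UMIs gave 235 and 505, 167 and 133, 322 and 669, and 66.2%. Thinning and a higher minimum leave fewer symbols to count. TMM gave 221 higher against clusters 0, 1 and 7 and a share of 63.98%. Suffix 1 alone gave 255 and 585 against clusters 0, 1 and 7 and 65.4%. Suffix 2 alone gave 105 and 100 against cluster 4, 296 and 667 against non-epithelial nuclei, and 49.7%. The 82 nuclei of cluster 3 in its main rebuilt cluster gave 195 higher against cluster 4 and 51.8%. A prior of 2 UMIs gave 63.4%. An unscaled prior, added after seeing the data, gave 63.9%, with 464 and 806, 301 and 336, and 559 and 1129 symbols. Cluster 3 made up 14.3% of kept nuclei in suffix 1 and 9.23% in suffix 2. The log2 folds that reversed were those of an *igfbp5a* feature against non-epithelial nuclei at 350 UMIs (0.37), *mpx* against clusters 0, 1 and 7 at 500 UMIs (−1.78) and in suffix 2 (−1.67), and *abi3bpb* against cluster 4 in suffix 1 (0.35). In suffix 2 so did *roraa* against cluster 4 (−0.13), and *fosb* (−0.34) and *mcm3* (−2.78) against non-epithelial nuclei. The list medians were those of Notch targets against non-epithelial nuclei in suffix 1 (−0.16) and in the 82 nuclei (−0.51), and of keratins against cluster 4 in suffix 2 (0.17). The cause was not tested. Depth limits the low genes, since 3 UMIs in cluster 3 equal 28.7 CPM and a count of 0 allows a level up to that.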
